A study of Danio rerio with 6 samples.

Results

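Aminoacyl-tRNA synthetases are the enzymes that load each amino acid onto its transfer RNA. They were followed in zebrafish (Danio rerio) larvae with a knockout of hspd1, the gene of the mitochondrial chaperonin HSP60. The genes were chosen by symbol from 34 written names, 18 of cytosolic and 16 of mitochondrial enzymes. Of these names 33 matched a gene, out of 25859 genes in the files, and all 33 passed the filter on low counts (21602 genes tested). tars2 matched no symbol and was not analysed here. Symbols are printed as the symbol table gives them, mostly in the capitals of human genes.

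The knockout group held 3 pools of hspd1-/- larvae and the control group 3 pools of hspd1+/+ larvae. Parents of both groups were heterozygous fish of a knockout line, mated with each other, and larvae were sampled at 5 days post fertilization (dpf), each pool made of 5 genotyped larvae whose caudal fin tip had been cut off. Per the labels, pooling was repeated for 3 mating sets, and the nature of the hspd1 lesion is not given in the sources used here. Each pool gave 1 poly(A)-selected RNA sequencing library of 18517874 to 20331675 counts. All fold changes are knockout over control, and n is 3 pools per group throughout.

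Eukaryotic cells charge tRNAs in separate places. Cytosolic synthetases serve translation of nuclear messages, and several of them sit in the multi-synthetase complex, held together by scaffold proteins. Mitochondria import their own set of synthetases, encoded by separate nuclear genes, to translate the few proteins of the mitochondrial genome. In mammals, lysine and glycine are exceptions, because KARS1 and GARS1 each make both the cytosolic and the mitochondrial enzyme. Synthetases fall into class I and class II by the fold of their catalytic domain, and genes of many cytosolic synthetases are known targets of the stress transcription factor ATF4 in mammals.

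Transcript of the targeted gene was lower in the knockout pools, at 73.4, 67.9 and 82.3 CPM (counts scaled to a common library size), against 124, 133 and 132 CPM in the control pools. HSPD1 (ENSDARG00000056160) thus had a log2 fold change of -0.79 (SE 0.11, edgeR quasi-likelihood test, adjusted p = 0.00162). HSP60 protein was not measured.

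Most cytosolic synthetase genes rose in the knockout larvae, whereas all but 1 of the mitochondrial genes did not pass the threshold. Of the 18 cytosolic genes 15 rose and 0 fell at an adjusted p of 0.05, where 1.47% of all genes tested were higher and 2.54% lower by the same rule, or 4.01% in either direction. At an unadjusted p under 0.05, 17 were higher and 0 lower with edgeR, where 6.79% of all genes tested were higher and 8.81% lower. DESeq2 called 16 of the 18 higher and 0 lower, and limma-voom 15 higher and 0 lower. Over all genes DESeq2 called 404 higher and 709 lower, and limma-voom 295 higher and 518 lower. The median log2 fold change of the 18 cytosolic genes with edgeR was 0.89, against -0.01 over all genes tested. Every one of the 18 had a positive estimate, from 0.31 for MARS1 to 1.77 for KARS1. In 17 of them all knockout pools lay above all control pools, which held for 10.8% of all genes tested.

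Among the 15 mitochondrial genes 1 rose and 0 fell with edgeR, with a median log2 fold change of 0.06. Unadjusted, 2 were higher and 0 lower, while DESeq2 and limma-voom each called 1 higher and 0 lower. Knockout pools lay above the controls in 3 of these genes and below them in 1, where 10.8% and 10.6% of all genes tested did so. The cytosolic genes that rose made up 83.3% of their list and 4.73% of the 317 genes that were higher overall.

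**Figure D1:**
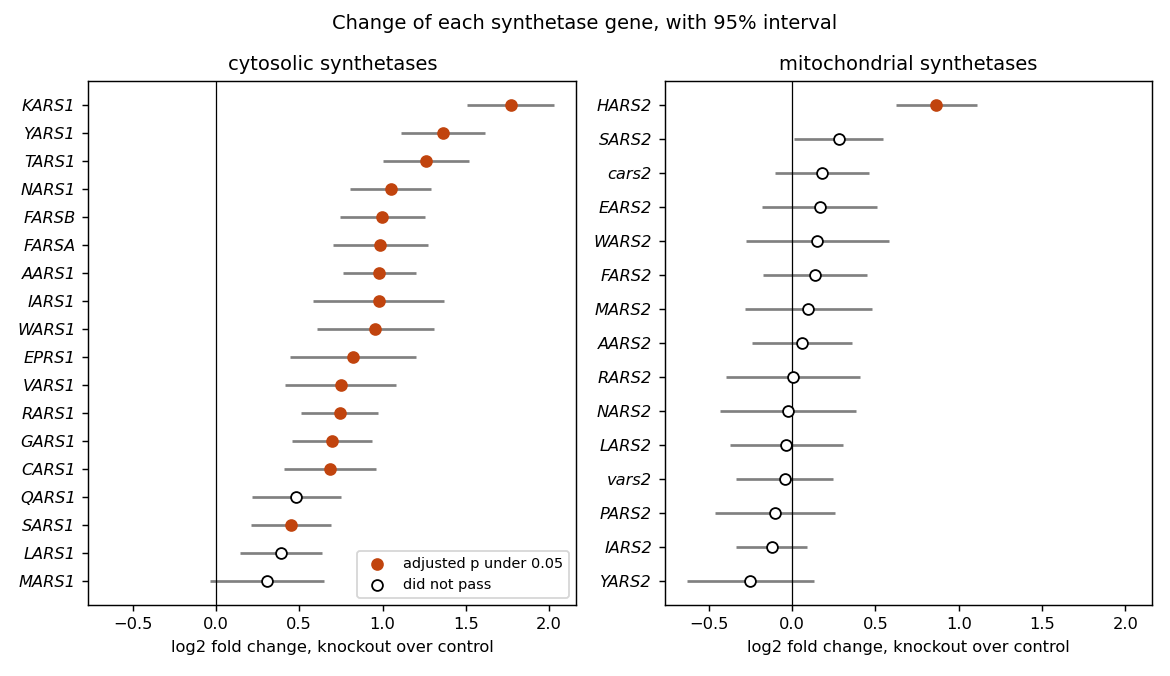
Log2 fold change of each synthetase gene, knockout over control (points), with 95% intervals from the edgeR fit (lines), for 18 cytosolic and 15 mitochondrial genes. Filled points passed an adjusted p of 0.05. Cytosolic estimates run from 0.31 to 1.77, and 14 of the 15 mitochondrial intervals lie wholly below the cytosolic median of 0.89. So do the intervals of the cytosolic genes QARS1, SARS1, LARS1 and MARS1.

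KARS1 (ENSDARG00000103799), the lysine enzyme, changed most among the synthetases. It stood at 730.0, 831 and 736 CPM in knockout pools, against 204, 238 and 232 CPM in control pools. The groups were far apart, with every knockout pool above 3 times the highest control value. The log2 fold change was 1.77 (SE 0.12, 95% interval 1.51 to 2.03, edgeR adjusted p = 1.18e-05), a 3.41-fold difference that ranked 63 by size and 35 by p among all genes tested. Its interval lay above the whole intervals of NARS1 and of every cytosolic gene ranked below it, and overlapped those of YARS1 and TARS1. Reads of KARS1 made up 27.2%, 27.5% and 24.8% of the summed CPM of the 18 cytosolic genes in knockout pools 1, 2 and 3, against 15.2%, 16.2% and 16.2% in control pools 1, 2 and 3.

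YARS1, the tyrosine enzyme, and TARS1, the threonine enzyme, came next. YARS1 had 117, 110 and 109 CPM in knockout pools, against 38.2, 44.3 and 48.1 CPM in control pools (log2 fold change 1.36, SE 0.11, edgeR adjusted p = 5.40e-05). TARS1 had 152, 139 and 147 CPM in knockout pools, against 52.9, 61.1 and 68.4 CPM in control pools (log2 fold change 1.26, SE 0.12, edgeR adjusted p = 1.14e-04). In both genes knockout pool 1 was the highest pool and control pool 1 the lowest. Neither gene belongs to the multi-synthetase complex in mammals.

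NARS1, which charges asparagine tRNA, held 237, 277 and 285 CPM in knockout pools, against 124, 132 and 130 CPM in control pools, a 2.07-fold difference (edgeR adjusted p = 2.58e-04). AARS1, the alanine enzyme, held 238, 251 and 246 CPM in knockout pools, against 117, 128 and 127 CPM in control pools (log2 fold change 0.98, SE 0.10, edgeR adjusted p = 2.08e-04). The pools of each genotype were tight in AARS1, whose SE was the smallest of the cytosolic genes. The phenylalanine enzyme is a tetramer of an alpha subunit, FARSA, and a beta subunit, FARSB, and both subunit genes rose by nearly the same amount, with log2 fold changes of 0.99 (SE 0.13) and 0.999 (SE 0.12).

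WARS1, the tryptophan enzyme and in mammals also an interferon-induced gene, was the member with the fewest reads among the cytosolic genes. It stood at 9.59, 13.5 and 11.7 CPM in knockout pools, against 5.84, 5.40 and 6.67 CPM in control pools (log2 fold change 0.96, SE 0.16, edgeR adjusted p = 0.00596). RARS1, GARS1 and CARS1, for arginine, glycine and cysteine, rose less, with log2 fold changes of 0.74, 0.70 and 0.69 (edgeR adjusted p = 0.00218, 0.00401 and 0.0103). GARS1 had 264, 246 and 238 CPM in knockout pools, against 139, 162 and 161 CPM in control pools. With KARS1, both enzymes that serve the 2 compartments in mammals were thus among the genes that rose, at different sizes.

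Another 4 cytosolic genes, of which 3 rose, were uneven between knockout pools. EPRS1, a fused enzyme for glutamate and proline, had 199, 306 and 317 CPM in knockout pools 1, 2 and 3, against 171, 154 and 139 CPM in control pools (log2 fold change 0.82, SE 0.17, edgeR adjusted p = 0.0209). IARS1, for isoleucine, had 73.6, 119 and 119 CPM in knockout pools 1, 2 and 3, against 59.5, 48.6 and 50.1 CPM in control pools (log2 fold change 0.98, SE 0.18, edgeR adjusted p = 0.0105). VARS1, for valine, had 60.6, 87.3 and 93.3 CPM in knockout pools 1, 2 and 3, against 48.9, 49.1 and 45.6 CPM in control pools (log2 fold change 0.75, SE 0.15, edgeR adjusted p = 0.0187). In these genes knockout pool 1 lay between the controls and the other knockout pools.

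MARS1, for methionine, carried the same pattern further. It stood at 36.0, 52.5 and 55.9 CPM in knockout pools 1, 2 and 3, against 40.8, 37.3 and 38.6 CPM in control pools, so knockout pool 1 lay below every control. Its log2 difference of 0.31 (SE 0.15) missed the threshold (adjusted p = 0.380 with edgeR), whereas without knockout pool 1 it was 0.48 and passed (adjusted p = 0.0288). Without that pool EPRS1, IARS1 and VARS1 stood at 1.01, 1.17 and 0.92, and VARS1 did not pass when knockout pool 2, knockout pool 3 or control pool 3 was left out (adjusted p = 0.0683, 0.0523 and 0.0782). For EPRS1, leaving out any pool numbered 2 or 3, of either genotype, ended the call (adjusted p 0.0587 to 0.0954).

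Measured on log2 CPM, knockout pool 1 lay 0.57 to 0.69 below the mean of knockout pools 2 and 3 in these 4 genes, which were singled out after their values were seen. The other 14 cytosolic genes lay between 0.40 below and 0.13 above it. A shift of more than 0.5 below was seen in 7.26% of all genes tested. Knockout pool 1 also differed in cell type markers. All 9 neuron genes were lower in it than the mean of the other knockout pools, by a median of 0.36. Of 20 hepatocyte genes 17 were not lower, with a median of 0.31 above. Over all genes tested, 11278 of 21602 were lower in knockout pool 1 by this measure. Exocrine pancreas markers were lower in 13 of 19 genes, with a median of 0.26 below and 4 genes more than 0.5 below. Skeletal muscle markers were lower in 3 of 10 genes, with a median of 0.21 above. Integrated stress response genes were lower in 16 of 19, with a median of 0.18 below and 3 genes more than 0.5 below. Their part in the uneven genes was not tested.

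**Figure D2:**
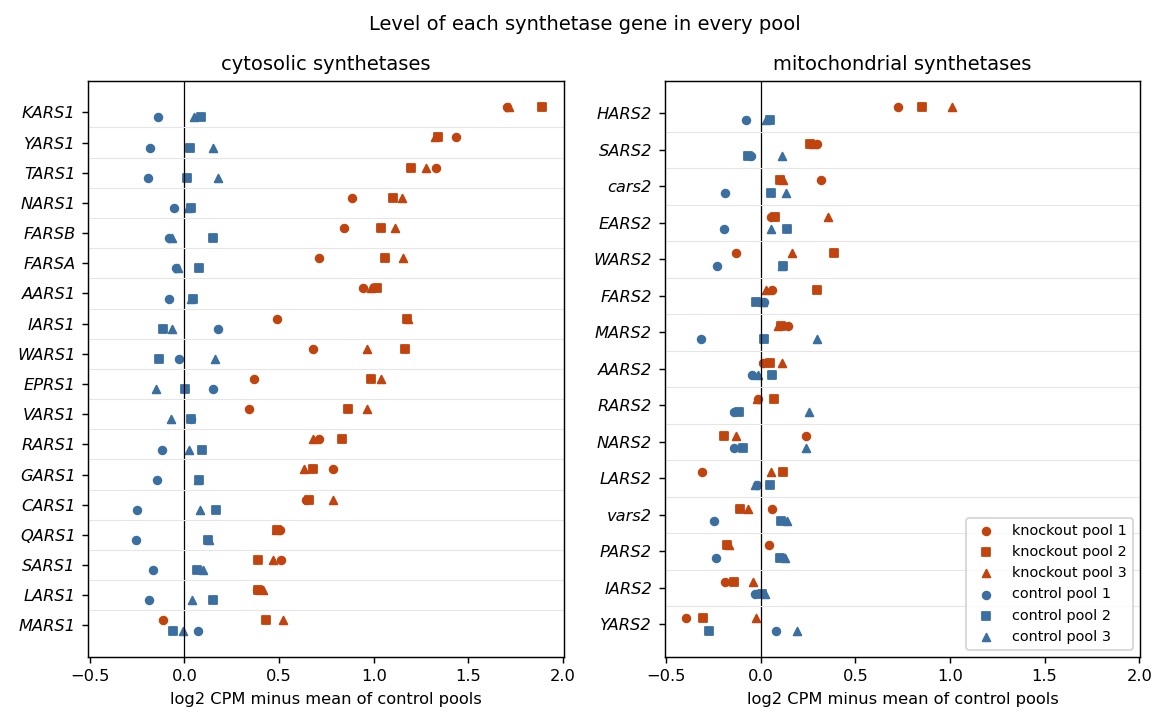
Level of each synthetase gene in every pool, as log2 CPM minus the mean of the control pools. Knockout pools are drawn above control pools in each row, and marker shape gives the pool number. EPRS1, IARS1, VARS1 and MARS1 show knockout pool 1 (circles) apart from pools 2 and 3, while KARS1, YARS1, TARS1 and AARS1 do not.

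After MARS1, the lowest cytosolic estimates were those of LARS1, SARS1 and QARS1, for leucine, serine and glutamine. SARS1 had 158, 146 and 153 CPM in knockout pools, against 99.1, 116 and 119 CPM in control pools, and its log2 fold change of 0.45 passed narrowly (SE 0.11, edgeR adjusted p = 0.0452). Its call was lost whenever any of the 6 pools was left out (adjusted p 0.0837 to 0.116). QARS1 stood at 71.1, 70.6 and 70.3 CPM in knockout pools, against 42.0, 54.7 and 55.0 CPM in control pools, and did not pass (log2 difference 0.48, edgeR adjusted p = 0.0560), but passed under upper-quartile scaling (0.0340) and DESeq2 (0.0113). LARS1 had 65.9, 66.2 and 67.5 CPM in knockout pools, against 44.3, 56.0 and 52.0 CPM in control pools (log2 difference 0.39, edgeR adjusted p = 0.0923).

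QARS1 and LARS1 varied little among knockout pools and more among controls. Control pool 1 was the lowest control in 13 of the 18 cytosolic and 11 of the 15 mitochondrial genes, against 38.5% of all genes tested.

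Seen by class, 8 of 8 cytosolic class II genes rose, with a median log2 fold change of 0.99. Of 9 class I genes 6 rose, with a median of 0.74, and the fused EPRS1 holds a domain of each class. Of the 7 genes whose products sit in the multi-synthetase complex in mammals (EPRS1, IARS1, KARS1, LARS1, MARS1, QARS1 and RARS1) 4 rose, with a median of 0.74, and of the 11 others 11 rose, with a median of 0.98. All 3 genes that did not pass, QARS1, LARS1 and MARS1, are both class I and members of that complex, and the differences between these groups were not tested.

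Of 4 genes of the complex's scaffold proteins 1 rose and 0 fell with edgeR (2 and 0 unadjusted, 1 and 0 by DESeq2 and by limma-voom). AIMP2 had 81.0, 87.0 and 80.1 CPM in knockout pools, against 65.7, 58.2 and 56.0 CPM in control pools (log2 fold change 0.46, SE 0.10, edgeR adjusted p = 0.0333). Leaving out any pool numbered 2 or 3, of either genotype, ended that call (adjusted p up to 0.167). The 2 genes with the symbol AIMP1 stood at log2 differences of 0.30 (ENSDARG00000060036) and 0.18 (ENSDARG00000036894), and EEF1E1, the third scaffold protein, at -0.05, and none of these passed (edgeR adjusted p = 0.180, 0.455 and 0.912).

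Second genes for leucine and threonine lay outside the chosen names. lars1a, a second leucine enzyme gene, stood at 0.28, and tars3, a second cytosolic threonine enzyme gene, at -0.24, and neither passed (edgeR adjusted p = 0.388 and 0.472). TARS1 and tars3 thus lay on opposite sides of 0 in estimate.

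The mitochondrial gene that rose was HARS2 (ENSDARG00000003693), the histidine enzyme. It had 157, 172 and 192 CPM in knockout pools, against 90.0, 98.3 and 97.2 CPM in control pools (log2 fold change 0.87, SE 0.11, edgeR adjusted p = 0.00105), with knockout pools all above controls. Its size was close to the cytosolic median and outside the range of the other 14 mitochondrial genes, which ran from -0.25 to 0.28. Its level, with a control mean of 95.2 CPM, also lay above those of the other 14, of which IARS2 was highest at 32.8 CPM. Control means of the cytosolic genes ran from 5.97 CPM (WARS1) to 225 CPM (KARS1). The symbol table holds no gene named hars or hars1, while the RefSeq gene table for zebrafish lists 1 gene named hars and 0 named hars2, and no shared identifier links the tables. Whether this gene makes the mitochondrial enzyme, the cytosolic one or both is therefore not settled by the names. Without HARS2, 0 of 14 mitochondrial genes were called by edgeR in either direction (1 higher and 0 lower at an unadjusted p under 0.05), with a median log2 fold change of 0.03. DESeq2 and limma-voom also called 0 of these 14.

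Among the others, SARS2 was the highest. It stood at 10.4, 10.1 and 10.2 CPM in knockout pools, against 8.17, 8.08 and 9.16 CPM in control pools, with no overlap but no call (log2 difference 0.28, edgeR adjusted p = 0.296). IARS2 had 28.7, 29.7 and 31.9 CPM in knockout pools, against 32.1, 32.96 and 33.3 CPM in control pools, every knockout pool lying below the controls (log2 difference -0.12, edgeR adjusted p = 0.598). YARS2 was the lowest estimate, with 4.61, 4.91 and 5.99 CPM in knockout pools, against 6.44, 5.02 and 6.99 CPM in control pools, and the groups overlapped (log2 difference -0.25, edgeR adjusted p = 0.535).

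Precision differed among the mitochondrial genes. The 14 mitochondrial genes other than HARS2 had 52 to 632 counts per pool, and the half-widths of the 95% intervals over all 15 ran from 0.21 to 0.43 on the log2 scale. These are intervals of single genes, and the adjusted threshold was harder to reach: QARS1 missed it at a log2 difference of 0.48 with an SE of 0.12, while the median SE of the mitochondrial genes was 0.15. The intervals ended below the cytosolic median of 0.89 in 14 of the 15 genes, with upper bounds of at most 0.58, and 13 of the 15 held 0. Those of the cytosolic genes QARS1, SARS1, LARS1 and MARS1 also ended below that median, with upper bounds of 0.64 to 0.75.

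Summed over genes, the 18 cytosolic synthetases reached 2686, 3021 and 2962 CPM in knockout pools, against 1337, 1466 and 1438 CPM in control pools, or 2890 ± 179 against 1414 ± 67.8 CPM (mean ± SD, n = 3 each), a ratio of 2.04. They took 0.271%, 0.308% and 0.304% of all counts in knockout pools, against 0.130%, 0.142% and 0.144% in control pools. The 15 mitochondrial genes summed to 277, 291 and 314 CPM in knockout pools, against 200.4, 219 and 225 CPM in control pools, a ratio of 1.37. Without HARS2, left out after its values were seen, the other 14 summed to 121 ± 1.71 CPM in knockout pools and 119 ± 8.53 CPM in control pools (SD, n = 3 each). The sums did not overlap between genotypes for the cytosolic genes or for all 15 mitochondrial genes, and overlapped for the 14 without HARS2.

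**Figure D3:**
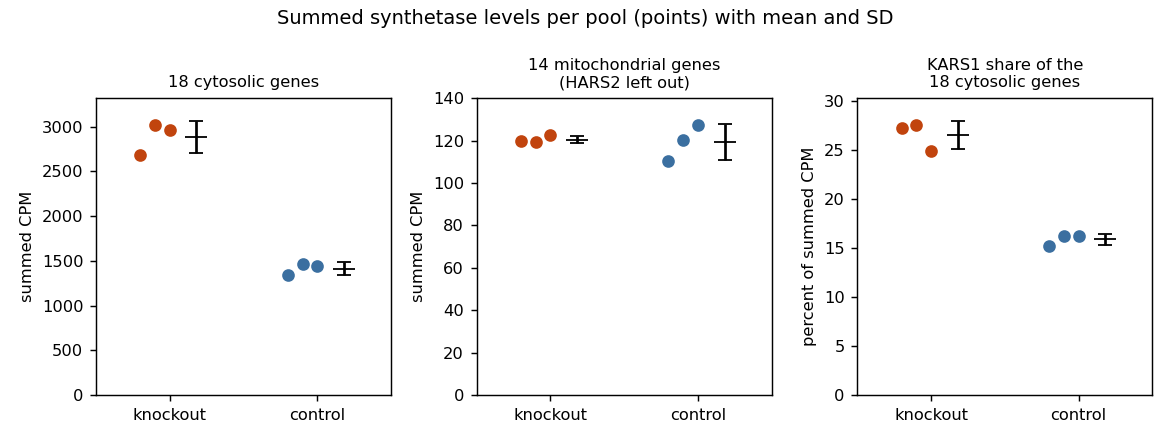
Summed CPM of the 18 cytosolic genes (left) and of 14 mitochondrial genes without HARS2 (middle), and the percentage of the cytosolic sum that came from KARS1 (right), in knockout and control pools. Points are pools and bars show mean and SD (n = 3 each), and the cytosolic sum is 2.04 times as high in knockout pools while the mitochondrial sums without HARS2 overlap.

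Partners for the same amino acid were then set side by side, as 15 pairs over 14 mitochondrial enzymes. EPRS1 was paired with EARS2 and PARS2, and both FARSA and FARSB with FARS2. HARS2, the mitochondrial gene that rose, had no cytosolic partner among the members and is in no pair. The cytosolic gene had the higher log2 fold change in all 15 pairs, by a median of 0.81. That count was fixed before pairing, because the lowest cytosolic estimate (0.31, MARS1) exceeded the highest of the 14 paired mitochondrial genes (0.28, SARS2). Matching by amino acid therefore adds nothing to it. Tyrosine showed the widest gap, 1.61 between YARS1 and YARS2, and asparagine had a gap of 1.08. Alanine, with a gap of 0.92, had an SD of the log2 ratio of 0.05 among knockout and 0.04 among control pools. AARS2 had only 99 to 109 counts per pool, so with counting noise such SDs over 3 pools cannot show a steady ratio. The narrowest gaps were serine at 0.17 and methionine at 0.21.

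The ratio of the cytosolic to the mitochondrial partner was taken within each pool, which removes library scaling. That ratio was higher in every knockout pool than in any control pool in 10 of the 15 pairs, and lower in 0. Such separation always gives p = 0.1 in an exact two-sided permutation test, the smallest that 3 against 3 pools can give. That p-value of the 10 pairs therefore adds nothing to their count, and this design could not pass 0.05 for a single pair. Separation was already present in 17 of the 18 cytosolic genes taken alone, and its share among other pairs of genes was not computed. The 5 overlapping pairs were EPRS1 with PARS2, EPRS1 with EARS2, VARS1 with vars2, MARS1 with MARS2 and SARS1 with SARS2, of which all but the last involve a gene that was uneven in knockout pool 1.

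**Figure D4:**
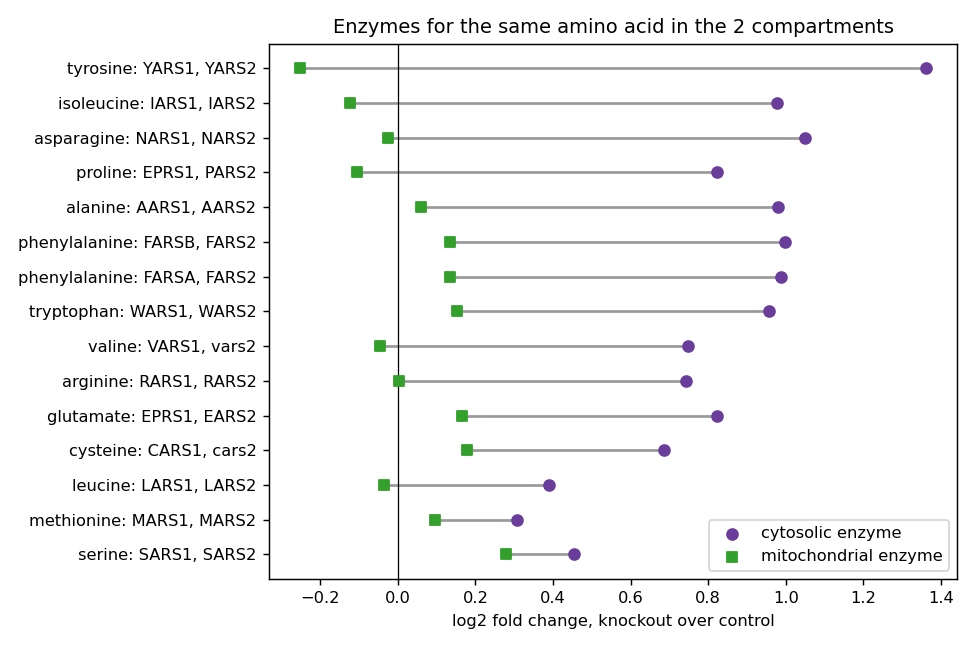
Log2 fold change, knockout over control, of the cytosolic (circle) and mitochondrial (square) enzyme gene for the same amino acid, in 15 pairs sorted by their gap. The circle lies right of the square in every pair, by 1.61 for tyrosine and 0.17 for serine. HARS2 is in no pair, and every cytosolic estimate exceeds those of the other mitochondrial genes, so any pairing would show this order.

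The rest of the translation apparatus was compared through gene lists. Names that matched no symbol were not read: 51 names written for initiation factors gave 34 genes, and 24 for elongation and termination factors gave 20. Of 34 cytosolic initiation factor genes 3 rose and 0 fell with edgeR (9 higher and 2 lower at an unadjusted p under 0.05, 5 and 1 called by DESeq2, 3 and 0 by limma-voom), with a median log2 fold change of 0.12. All 3 code for subunits of eIF2B, the exchange factor that recycles eIF2 and is blocked by phosphorylated eIF2. EIF2B4 had 99.7, 95.8 and 98.7 CPM in knockout pools, against 53.4, 54.8 and 57.6 CPM in control pools (log2 fold change 0.83, SE 0.10, edgeR adjusted p = 5.39e-04). EIF2B1 and EIF2B3 rose by 0.77 and 0.53 (edgeR adjusted p = 0.00655 and 0.0317), and EIF2B3 kept its call in 1 of the 6 fits that left out a pool (adjusted p up to 0.101 in the others). The remaining subunit genes EIF2B5 and EIF2B2, added after their values were seen, stood at 0.43 and 0.33 and did not pass (edgeR adjusted p = 0.0910 and 0.154). Their knockout pools all lay above the controls, which held for 10.8% of all genes tested.

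Of 35 genes of tRNA maturation, export and proofreading, 2 rose and 0 fell with edgeR (4 and 0 unadjusted, 2 and 0 by DESeq2 and by limma-voom), with a median of 0.10. RTCB, the ligase that joins tRNA pieces after splicing and also rejoins the spliced xbp1 message, had 44.7, 52.6 and 57.7 CPM in knockout pools, against 26.8, 29.4 and 27.4 CPM in control pools (log2 fold change 0.89, SE 0.12, edgeR adjusted p = 0.00139). The tRNA exporter XPOT and the CCA-adding enzyme TRNT1 stood at 0.18 and 0.03 and did not pass (edgeR adjusted p = 0.545 and 0.934).

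No gene among 20 cytosolic elongation and termination factors passed with edgeR (0 unadjusted), DESeq2 or limma-voom, and the median was 0.07. Of 82 cytosolic ribosomal protein genes 1 rose, rps27l, at 1.88, while 0 fell and the list's median was 0.09. Of 74 mitochondrial ribosomal protein genes 0 were called by edgeR or DESeq2 and 1 by limma-voom, with 9 higher and 0 lower at an unadjusted p under 0.05 and a median of 0.11. Of 20 mitochondrial charging and translation factors 0 were called by edgeR, DESeq2 or limma-voom (1 higher and 0 lower unadjusted), with a median of 0.01. These include QRSL1, GATB and GATC, the subunits of the amidotransferase that makes glutamine tRNA in mitochondria, at -0.02, 0.01 and -0.06, and mtfmt, which formylates the initiator tRNA, at -0.05.

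**Figure D5:**
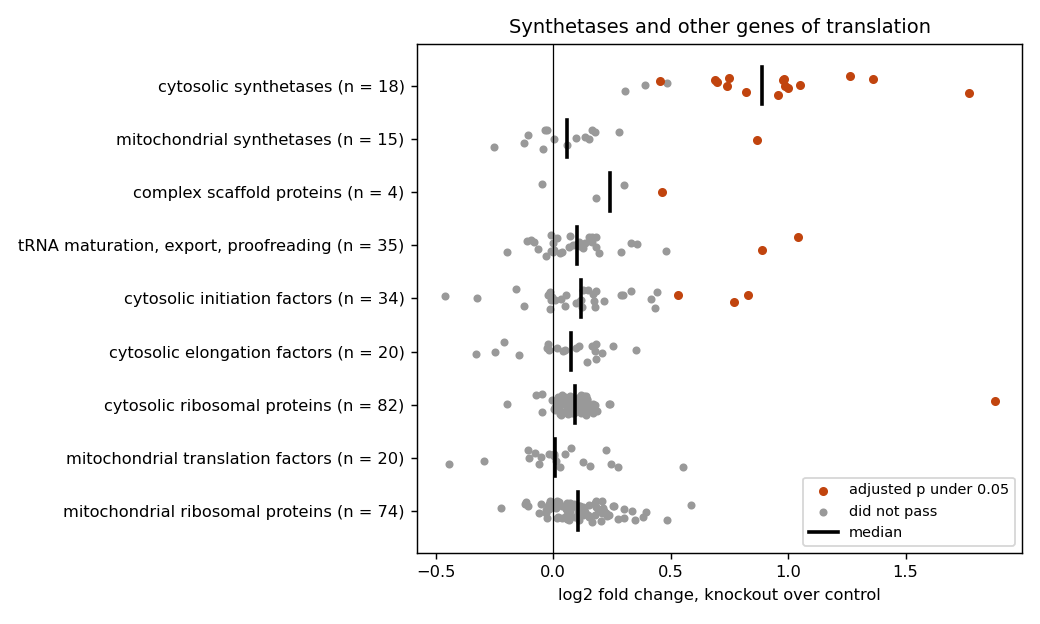
Log2 fold change, knockout over control, of each gene (points, spread vertically for legibility) in the 2 synthetase groups and in 7 other lists of translation genes, with the median of each list as a bar. The cytosolic synthetases have a median of 0.89, and the other lists have medians of 0.01 to 0.24.

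The integrated stress response, which acts in part through ATF4, was read through transcripts of 19 genes. Of these 9 rose and 0 fell with edgeR (14 and 0 unadjusted, 10 and 0 by DESeq2, 9 and 0 by limma-voom). Their estimates ran from -0.23 to 2.20, with a median of 0.48 over the 19. The genes that rose are not named here, and the 4 upstream genes below were picked after their values were seen. Of its upstream genes EIF2AK4, the kinase that senses uncharged tRNA, and its partner GCN1 stood at log2 differences of 0.03 and -0.23, and dele1 and eif2ak1, which relay mitochondrial stress in mammals, at 0.39 and 0.46. None of these 4 passed (edgeR adjusted p = 0.915, 0.543, 0.0560 and 0.145).

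The pools were whole larvae, so cell type markers were read alongside. Not every written marker name matched a gene. The 18 neuron names gave 9 genes, 17 skeletal muscle names gave 10, 24 exocrine pancreas names gave 19 and 20 hepatocyte names gave 20. Exocrine pancreas, a tissue of high protein synthesis, had 16 of 19 marker genes lower and 0 higher with edgeR (17 and 0 unadjusted, 16 and 0 by DESeq2 and by limma-voom), and their sum was 1584 to 1823 CPM in knockout pools against 4991 to 8572 CPM in control pools. Hepatocyte markers were lower in 17 of 20 genes and higher in 0 (19 and 0 unadjusted, 19 and 0 by DESeq2, 17 and 0 by limma-voom), with sums of 4231 to 6388 CPM in knockout pools and 11613 to 13893 CPM in control pools, and ahsg2 was at 0 in every knockout pool. Sums of 10 skeletal muscle genes, 44507 to 54957 CPM in knockout pools and 44578 to 54998 CPM in control pools, overlapped, as did those of 9 neuron genes. In such pools, fewer cells of a type and less RNA per cell cannot be told apart, and the part of these marker changes in the synthetase result was not tested.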

How the data were processed

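Poly(A)-selected, non-stranded, paired-end libraries (read length 100 bases) of 6 whole-larva pools were deposited as estimated counts per Ensembl gene, stored as whole numbers, so rounding changed nothing. The submitters' processing notes name the build GRCz11 and the tools Salmon, DESeq2, FastQC and Trim Galore, whose versions and roles are not given in the sources used here. RNA integrity numbers were above 8.3, per the labels' protocols. A symbol table gave symbols for 23598 of 25859 genes, and each matched member symbol is carried by 1 gene. Without strand, overlapping and antisense genes cannot be told apart.

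Genes were kept by filterByExpr (21602 genes, 0.0516% of counts removed), scaled by TMM (factors 0.970 to 1.03) and tested with edgeR 4.0.16 (R 4.3.3) quasi-likelihood in a model of genotype alone, with p-values adjusted by Benjamini-Hochberg over all genes tested and a threshold of 0.05. Standard errors were derived from the F statistic, and 95% intervals use the test's degrees of freedom. Log CPM used a prior count of 2. On simulated data over 21468 genes made from this comparison's means and dispersions, calls were made for 88 of 100 genes with a log2 change of 1, for 98 of 99 with a change of 2, and for 20 unchanged genes. Pools of a genotype varied beyond counting noise (chi-square per degree of freedom 7.22 to 20.6), so p-values measure the spread between pools.

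Members and lists were chosen with earlier results of these data known. All members could be named, with up to 6 called genes per list, and XPOT, TRNT1, QRSL1, GATB, GATC, mtfmt, EIF2B2, EIF2B5, EIF2AK4, GCN1, dele1, eif2ak1 and ahsg2 were added after their values were seen. Alternatives were RLE and upper-quartile scaling, a minimum of 1 CPM in 3 pools or no filter, DESeq2 1.42.0, limma-voom (limma 3.58.1), an adjusted p of 0.01, the replicate number as a block, and each pool left out. Genome positions and sequences were not used here. Some genes of the lists are not reported here.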

Additional observations from a re-analysis of the deposited data

How the results depend on the processing

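Of the 15 cytosolic genes called higher, 12 were called in all 13 refits, namely AARS1, CARS1, FARSA, FARSB, GARS1, IARS1, KARS1, NARS1, RARS1, TARS1, WARS1 and YARS1, and EPRS1, SARS1 and VARS1 were not. All 18 kept a positive estimate in every refit, and no mitochondrial gene gained or lost a call. With single pools left out, the number of cytosolic genes higher ran from 12 to 15 and lower stayed at 0, mitochondrial higher stayed at 1 and lower at 0, the cytosolic median ran from 0.79 to 1.003, the mitochondrial median from -0.03 to 0.15 (below 0 without control pool 1) and their gap from 0.70 to 0.96. Over all genes, 189 to 346 were higher and 360 to 635 lower, with 205 and 361 without control pool 2, 189 and 360 without control pool 3, and 203 higher without knockout pool 2. At an adjusted p of 0.01, 156 genes were higher and 288 lower over all genes, and 10 cytosolic genes. Upper-quartile scaling gave 415 higher and 476 lower against 317 and 549, with 16 cytosolic genes. Leaving HARS2 out of the mitochondrial list left 0 called higher, an alternative chosen after seeing the data.

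Same-numbered pools did not deviate together (correlations -0.20, 0.10 and -0.07), so the numbers were used as names. With the replicate number as a block 14 cytosolic genes were higher, SARS1 lost its call (edgeR adjusted p = 0.126), the cytosolic median was 0.87 and 251 genes were higher and 487 lower over all genes. AIMP2 and EIF2B3 also lost theirs. Summing genes that share a member symbol changed nothing to fit, since none do. With 3 pools per genotype, differences of 0.39 (LARS1) and 0.48 (QARS1) missed the adjusted threshold at SEs of 0.11 and 0.12, and the median SE of the mitochondrial genes was 0.15.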
